A study of Drosophila melanogaster with 21 samples.

Results

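The basement membrane genes followed here are 10 Drosophila genes, taken by their gene ID from a list chosen with earlier results of these data known. They encode 4 laminin chains (LanA, LanB1, LanB2 and wb), 2 collagen IV chains (Col4a1 and vkg) and the matrix proteins SPARC, Ppn, Tig and Pxn. They are 10 of the 17558 gene IDs in the count tables, and all 10 were among the 8360 genes that passed the filter on low counts.

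A basement membrane is a thin sheet of extracellular matrix that underlies epithelia and wraps muscles, fat body and nerves. A laminin is a trimer of an alpha, a beta and a gamma chain. In Drosophila the alpha chain is either LanA or wb (wing blister), while LanB1 is the beta chain and LanB2 the gamma chain of every trimer. Laminins form the first network on the cell surface, where integrins and dystroglycan bind them, and collagen IV, a trimer of Col4a1 and vkg (viking) chains, adds the covalently linked network. SPARC binds collagen IV and is needed for its deposition, Pxn (peroxidasin) forms the sulfilimine bonds between collagen IV molecules, Ppn (papilin) is a large proteoglycan-like matrix protein, and Tig (tiggrin) is an integrin ligand at muscle attachment sites. In the fly, blood cells and fat body are the main makers of collagen IV.

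The libraries came from S2R+, a line of cultured cells derived from fly embryos, and were made from polyadenylated RNA. The groups were cells depleted for Ime4 (today Mettl3), for CG7818 (Mettl14), for Ime4 and CG7818 together (the double depletion), for Fl2d (fl(2)d), for CG6422 (Ythdf) and for YT521 (Ythdc1), and Control cells, with 3 libraries in each of 7 groups. Ime4 and CG7818 form the methyltransferase that writes N6-methyladenosine (m6A) into mRNA, Fl2d is a subunit of the same writer complex, and CG6422 and YT521 are the cytoplasmic and the nuclear m6A reader. The sources used here do not say how the genes were depleted or whether replicates were separate cultures, so p-values measure the spread between these libraries, which may be technical.

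Gene counts came to 20214568 to 28296393 per library, with a median of 22126193. The depleted genes stood at 8.66% to 25.8% of their Control level in the cells labelled as depleted for them. Some also moved in other depletions. Against Control, fl(2)d was higher in Ime4 (log2 fold change 0.52), CG7818 (0.50), double (0.49) and YT521 cells (0.27). In Fl2d cells Ythdc1 was higher (0.38) and Ythdf lower (-0.32). Each of these had an adjusted p under 0.05 in edgeR's quasi-likelihood test. Fl2d replicate 1 and YT521 replicate 2 stood apart in the mitochondrial rRNA mt:lrRNA, with 1.93% and 2.89% of counts, where the other libraries had 5.61% to 8.62%. Of 8 plasmatocyte (blood cell) markers, 6 were over 1 CPM (counts scaled to library size) in Control cells. These were crq at 216, ush at 148, srp at 94.7, Sr-CI at 32.2, He at 3.93 and Hml at 2.16 CPM, while NimC1 and eater were at 0.0576 and 0.384 CPM. The summed level of these markers was 457 to 484 CPM in Ime4, 477 to 524 CPM in CG7818, 456 to 489 CPM in double, 439 to 504 CPM in Fl2d, 397 to 452 CPM in CG6422 and 448 to 484 CPM in YT521 libraries, against 480 to 509 CPM in Control libraries. One marker of 7 for fat body (Ilp6 at 10.8 CPM), 1 of 6 for muscle (Mlc2 at 1.28 CPM) and 2 of 5 for follicle cells and germline (bam at 89.5 and Fas3 at 2.03 CPM) were over 1 CPM in Control cells. In bulk RNA, fewer cells of a type and less RNA per cell cannot be told apart.

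In the BDGP6.54 annotation the laminin genes lie at 3L:6203831-6218022 on the minus strand (LanA, FBgn0002526), 2L:7811438-7820771 on the plus strand (LanB1, FBgn0261800), 3L:9614914-9623980 on the plus strand (LanB2, FBgn0267348) and 2L:14263027-14328262 on the plus strand (wb, FBgn0261563). The collagen IV genes are direct neighbours that are transcribed away from each other. Col4a1 (FBgn0000299) lies at 2L:5029609-5037279 on the plus strand and vkg (FBgn0016075) at 2L:5012144-5028191 on the minus strand, with 1417 bases and 0 genes between them. The other members are on the minus strand, SPARC (FBgn0026562) at 3R:26869238-26871995, Ppn (FBgn0003137) at 3R:28520665-28540324, Tig (FBgn0011722) at 2L:6415179-6423310 and Pxn (FBgn0011828) at 3L:2601455-2630064. Exons of Tig overlap those of CG13982 on the other strand over 157 bases, and exons of Pxn overlap those of lncRNA:CR45660 on its own strand over 151 bases and those of CG16986 on the other strand over 82 bases. The sources used here do not say whether the counting used strand. The merged exons of SPARC span 1201 bases, while those of the other 9 members span 5000 bases or more.

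Levels per exon length differed widely between the members. In Control cells SPARC stood far above the rest at 454.9 ± 42.9 CPM per kb (SD, n = 3, as below), higher than 98.2% of genes with a known length. LanA followed at 39.97 ± 2.17, LanB2 at 35.33 ± 1.90, Pxn at 34.02 ± 3.03, LanB1 at 23.33 ± 1.01 and Tig at 19.28 ± 1.41 CPM per kb. Both alpha chain genes were thus present, but wb, at 0.2647 ± 0.0168 CPM per kb, lay far below LanA. The collagen IV genes were also low, with vkg at 0.5775 ± 0.0537 and Col4a1 at 0.2672 ± 0.0170 CPM per kb, and Ppn stood between at 1.292 ± 0.0899 CPM per kb. In this order the Control libraries of LanB2 and Pxn overlapped, and so did those of Col4a1 and wb. SPARC ranked highest and wb lowest in all 7 groups. The low members rested on few reads, with 32 to 110 counts per library for wb, 21 to 69 for Col4a1 and 56 to 143 for vkg, where the counts of LanA were 6331 to 14188 and those of SPARC 10687 to 22993.

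Against Control cells, laminin genes and Tig were mostly lower and Ppn higher. With a gene called where edgeR's quasi-likelihood test gave an adjusted p under 0.05 over all 8360 genes, 28 of the 60 values of members in 6 depletions were called, 6 of them higher and 22 lower. In the Ime4 depletion 1 of the 10 members was higher and 3 were lower, where 1.77% of all genes were called higher and 1.95% lower. CG7818 depletion raised 1 member and lowered 0, beside 1.10% and 1.22% of all genes. In the double depletion 1 member was higher and 5 were lower, beside 6.29% and 5.13%. In the Fl2d depletion 3 were higher and 4 lower, beside 21.4% and 19.9%. In the CG6422 depletion 0 were higher and 5 lower, beside 8.88% and 10.2%, and in the YT521 depletion 0 were higher and 5 lower, beside 3.27% and 3.25%. These comparisons share their Control libraries. Since the members were chosen with earlier results of these data known, the shares of all genes give the background and test no excess of members.

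Long genes were called lower more often than higher in the CG6422 and Fl2d depletions. Of the 1102 genes tested with exons of 5000 bases or more, 9 of them members, 27.6% were called lower and 1.36% higher in the CG6422 depletion, with a median log2 fold change of -0.12. In the Fl2d depletion 31.9% of these long genes were lower and 16% higher, in the double depletion 7.26% and 3.18%, in the YT521 depletion 6.90% and 2.63%, and in the Ime4 depletion 2.63% and 1.81%. In the CG7818 depletion it was the other way, with 1.45% lower, 2.09% higher and a median of 0.02. A fit with the trend on exon length removed, chosen after seeing the data, called 2 members in place of 5 in the CG6422 depletion, and its values are given below where they change a call.

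LanB1, the beta chain shared by all laminin trimers, fell wherever Ime4 was depleted. It stood at 99.9, 99.98 and 103 CPM in Ime4, 153, 142 and 155 CPM in CG7818, 99.4, 94.6 and 99.0 CPM in double, 145, 137 and 151 CPM in Fl2d, 137, 119 and 125 CPM in CG6422 and 116, 123 and 122 CPM in YT521 libraries, against 142, 154 and 144 CPM in Control libraries. The Ime4 and double libraries are the lowest of all and do not overlap with the other 5 groups, the reader depletions lie between, and the CG7818 and Fl2d libraries overlap those of Control cells. The log2 fold change was -0.54 (SE 0.0538, adjusted p = 3.56e-06) in Ime4, -0.59 (SE 0.0539, adjusted p = 2.88e-07) in double and -0.28 (SE 0.0533, adjusted p = 0.00215) in YT521 cells. It was 0.03 (SE 0.0532, adjusted p = 0.857) in CG7818 cells and -0.02 (SE 0.0534, adjusted p = 0.774) in Fl2d cells. In the CG6422 depletion it was -0.21 (adjusted p = 0.0102). That call was lost without CG6422 replicate 2 (-0.17), without Control replicate 2 (-0.17) and with the length trend removed (-0.09), with an adjusted p between 0.00303 and 0.258 over its 12 alternatives.

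**Figure D1:**
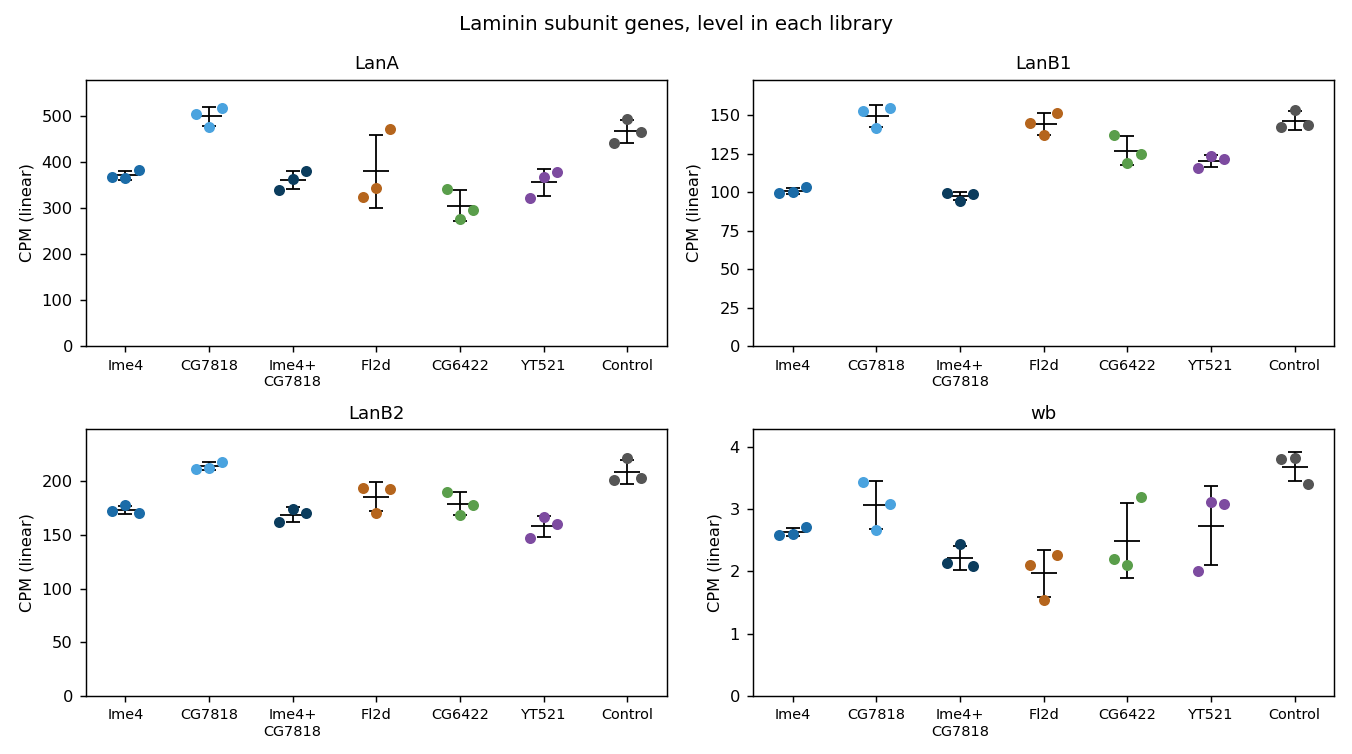
Level of each laminin gene in CPM (linear axis) in the 3 libraries of each group, with the mean and SD as bars. LanB1 forms a low pair of groups, Ime4 at 101 ± 1.98 CPM and double at 97.7 ± 2.65 CPM, against 147 ± 6.32 CPM in Control cells, and CG7818 at 149.7 ± 6.97 CPM beside Control.

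Direct tests between depletions separated these groups for LanB1. It was higher in CG7818 than in Ime4 cells by 0.57 on the log2 scale (SE 0.0539, adjusted p = 9.33e-07) and lower in double than in CG7818 cells (-0.62, SE 0.0540, adjusted p = 6.4e-07). It was higher in Fl2d than in double cells by 0.56 (SE 0.0541, adjusted p = 8.96e-08) and higher in YT521 than in double cells by 0.30 (SE 0.0539, adjusted p = 7.39e-04). Between double and Ime4 cells the difference was -0.05 (SE 0.0543, adjusted p = 0.859). Each of these 4 calls held in all 12 or 13 alternatives run for it.

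LanB2, the gamma chain, fell in 5 of 6 depletions. Its libraries had 172, 178 and 171 CPM in Ime4, 212, 212 and 218.5 CPM in CG7818, 162, 175 and 171 CPM in double, 194, 171 and 193 CPM in Fl2d, 190.5, 169 and 178 CPM in CG6422 and 147, 167 and 160.2 CPM in YT521 cells, against 201, 222 and 204 CPM in Control cells. The 5 groups other than CG7818 lie wholly below the Control libraries, and YT521 is the lowest. The fall was largest in YT521 cells (-0.40, SE 0.0571, adjusted p = 0.000178) and was -0.31 in double cells (SE 0.0572, adjusted p = 0.00121). These 2 calls held in all alternatives run for them. In Ime4 cells the log2 fold change was -0.27 (SE 0.0571, adjusted p = 0.00894), and the call was lost without Control replicate 2 (-0.22), with an adjusted p of 0.000876 to 0.0741 over 12 alternatives.

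In the Fl2d and CG6422 depletions the calls of LanB2 were less firm. The log2 fold change of -0.17 in Fl2d cells (adjusted p = 0.0216) lost its call in a fit of the compared groups alone (-0.18), with the length trend removed (-0.09), without Fl2d replicate 2 (-0.11) and without Control replicate 2 (-0.12), with adjusted p from 0.00876 to 0.216 over 13 alternatives. The value of -0.22 in CG6422 cells (adjusted p = 0.00975) lost it with the length trend removed (-0.11), without CG6422 replicate 2 (-0.19) and without Control replicate 2 (-0.18), with adjusted p from 0.00273 to 0.205 over 12 alternatives. In CG7818 cells the log2 fold change was 0.04 (SE 0.0569, adjusted p = 0.839).

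LanA, the alpha chain gene with the higher level, was lowest in cells depleted for the cytoplasmic reader. It stood at 368, 365 and 383 CPM in Ime4, 505.5, 476 and 517 CPM in CG7818, 340.3, 363 and 380.5 CPM in double, 325, 343 and 471 CPM in Fl2d, 342, 276 and 297 CPM in CG6422 and 322, 367 and 378 CPM in YT521 libraries, against 443, 493 and 466 CPM in Control libraries. All CG6422 libraries lie far below Control, and Fl2d replicate 3 lies within the Control range while the other Fl2d libraries lie below it. The log2 fold change in CG6422 cells was -0.62 (SE 0.100, adjusted p = 0.000425), and with the length trend removed it was -0.43 (adjusted p = 0.00123), within -0.71 to -0.43 and an adjusted p of 1.92e-13 to 0.00501 over 12 alternatives. Between the readers, LanA was 0.22 higher in YT521 than in CG6422 cells (SE 0.100, adjusted p = 0.157), which was not called.

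The other calls of LanA were less firm, each lost in some fits without 1 library. The log2 fold change itself stayed within -0.41 to -0.30 in double and -0.44 to -0.29 in YT521 cells over all alternatives. In double cells (-0.37, adjusted p = 0.0180) the call was lost without double replicate 1 (-0.33), double replicate 2 (-0.38) or Control replicate 2 (-0.33), with adjusted p from 7.54e-06 to 0.0958. In YT521 cells (-0.39, adjusted p = 0.0199) it was lost without YT521 replicate 1 (-0.33), Control replicate 2 (-0.35) or Control replicate 3 (-0.40), with adjusted p from 4.97e-06 to 0.116. The value of -0.30 in Fl2d cells (adjusted p = 0.0209) lost its call in 6 of 13 alternatives, which were the fit of the compared groups alone (-0.31), the fit without both libraries low in mt:lrRNA (-0.21), the length trend removed (-0.18), and the fits without Fl2d replicate 1 (-0.21), Fl2d replicate 2 (-0.23) or Control replicate 2 (-0.26). Without Fl2d replicate 3 it was -0.50, and the adjusted p over the 13 alternatives ran from 6.15e-05 to 0.112. In Ime4 cells the log2 fold change was -0.33 (adjusted p = 0.0697) and was called in 5 of 12 alternatives, among them the length trend removed (-0.32, adjusted p = 0.0218), and in CG7818 cells it was 0.10 (adjusted p = 0.719).

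The alternative alpha chain wb was low throughout but was called lower in 3 depletions. It had 2.58, 2.61 and 2.71 CPM in Ime4, 3.43, 2.67 and 3.09 CPM in CG7818, 2.13, 2.44 and 2.09 CPM in double, 2.10, 1.54 and 2.26 CPM in Fl2d, 2.197, 2.104 and 3.19 CPM in CG6422 and 2.00, 3.12 and 3.09 CPM in YT521 libraries, against 3.81, 3.83 and 3.41 CPM in Control libraries. Every group other than CG7818 lies below the Control libraries. Its log2 fold change was -0.91 in Fl2d (SE 0.184, adjusted p = 0.000497) and -0.73 in double cells (SE 0.176, adjusted p = 0.00904), called in all alternatives run. In CG6422 cells it was -0.58 (SE 0.173, adjusted p = 0.0237), and the call was lost with the length trend removed (-0.36) and without CG6422 replicate 1 (-0.50), CG6422 replicate 2 (-0.46), Control replicate 1 (-0.55) or Control replicate 2 (-0.54), with adjusted p from 0.00936 to 0.161. In Ime4 cells it was -0.49 (adjusted p = 0.120), in YT521 cells -0.42 (adjusted p = 0.131) and in CG7818 cells -0.27 (adjusted p = 0.480).

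Ratios between the chains of the LanA trimer differed between groups. Within a library the count of LanB1 over that of LanB2 was 0.582 ± 0.021 in Ime4, 0.699 ± 0.028 in CG7818, 0.578 ± 0.036 in double, 0.778 ± 0.028 in Fl2d, 0.709 ± 0.011 in CG6422 and 0.762 ± 0.024 in YT521 cells, against 0.702 ± 0.0074 in Control cells. The ratio needs no library scaling. It was lower in every Ime4 and double library, and higher in every Fl2d and YT521 library, than in any Control library. The ratio of LanA to LanB2 was 2.14 ± 0.094 in Ime4, 2.33 ± 0.078 in CG7818, 2.14 ± 0.081 in double, 2.04 ± 0.38 in Fl2d, 1.70 ± 0.086 in CG6422 and 2.25 ± 0.099 in YT521 cells, against 2.24 ± 0.046 in Control cells. Every CG6422 library lay below every Control library, while the Fl2d libraries, at 1.68, 2.01 and 2.44, lay on both sides of the Control range. In these ratios over LanB2, 5 groups lay wholly above or wholly below Control. For each, the exact 2-sided permutation test over libraries gave p = 0.1, the smallest that 3 against 3 allows. LanB1 over LanA, at 0.309 to 0.321 in Control libraries, gave this p in all 6 depletions. It was lower in Ime4 (0.27 to 0.274), CG7818 (0.298 to 0.302) and double libraries (0.26 to 0.292). It was higher in Fl2d (0.321 to 0.446), CG6422 (0.402 to 0.433) and YT521 libraries (0.322 to 0.36). The margin was slight in Fl2d replicate 3, at 3012 over 9378 counts, against 3212 over 10004 in Control replicate 1. Of the 36 ratios compared with Control, 6 pairs of members in 6 depletions, 21 had this smallest p. The lowest Benjamini-Hochberg adjusted p of this permutation test was 0.171. Since no p below 0.1 was possible, no adjusted p could fall under 0.05, and the ratios are only described.

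**Figure D2:**
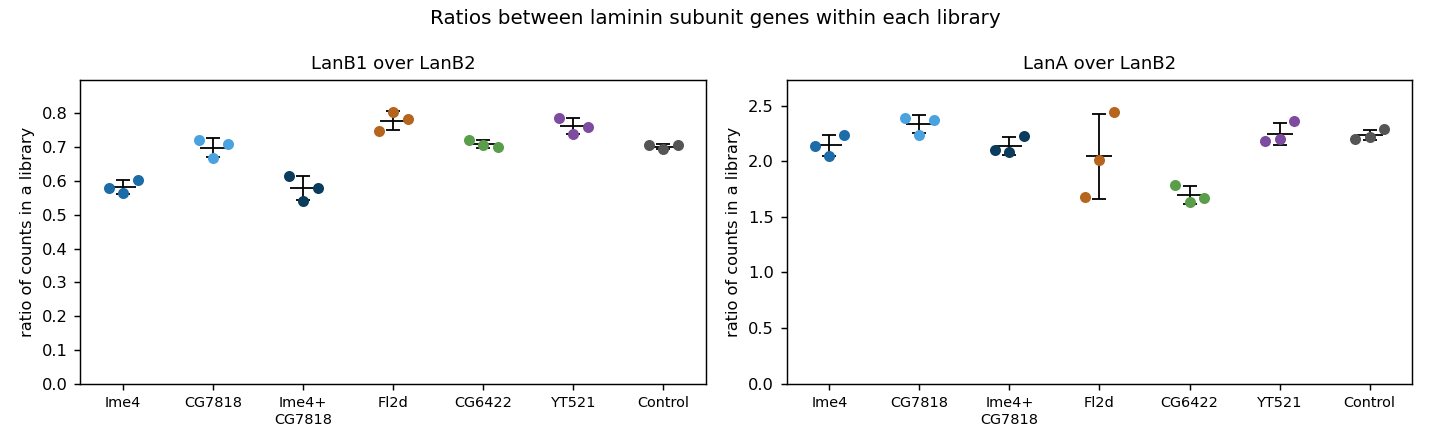
Count of LanB1 (left) and of LanA (right) divided by that of LanB2 in the same library, on linear axes, with the mean and SD of 3 libraries per group as bars. LanB1 over LanB2 is 0.582 in Ime4 and 0.578 in double cells, against 0.702 in Control cells, and LanA over LanB2 is 1.70 in CG6422 cells, against 2.24 in Control cells.

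Ppn, which encodes papilin, was the member that rose most often. It stood at 17.98, 17.1 and 15.5 CPM in Ime4, 17.7, 18.2 and 18.6 CPM in CG7818, 16.7, 17.97 and 16.35 CPM in double, 25.5, 24.1 and 23.8 CPM in Fl2d, 10.98, 10.4 and 11.3 CPM in CG6422 and 12.1, 13.5 and 13.1 CPM in YT521 libraries, against 11.9, 13.3 and 11.8 CPM in Control libraries. All libraries of the 4 writer depletions lie above all Control libraries, while the CG6422 libraries lie below them and the YT521 libraries, at 12.1 to 13.5 CPM, overlap them. The log2 fold change was 0.45 in Ime4 (SE 0.0720, adjusted p = 0.000782), 0.55 in CG7818 (SE 0.0717, adjusted p = 8.09e-05), 0.46 in double (SE 0.0721, adjusted p = 0.000216) and 0.98 in Fl2d cells (SE 0.0704, adjusted p = 7.37e-10), each called in all alternatives run. It was -0.18 in CG6422 (SE 0.0758, adjusted p = 0.0957) and 0.06 in YT521 cells (SE 0.0729, adjusted p = 0.663).

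Ppn was also higher in Fl2d than in double cells by 0.52 (SE 0.0684, adjusted p = 5.94e-06) and lower in YT521 than in double cells (-0.39, SE 0.0708, adjusted p = 0.000767). Both calls held in all alternatives run. It was higher in YT521 than in CG6422 cells by 0.25 (SE 0.0745, adjusted p = 0.0304), a call lost in 8 of 13 alternatives. These include the fits without CG6422 replicate 1 (0.25), CG6422 replicate 2 (0.22), YT521 replicate 2 (0.22) or YT521 replicate 3 (0.24), and the others were no filter on low counts (0.26), the compared groups alone (0.25), both libraries low in mt:lrRNA left out (0.22) and the length trend removed (0.16).

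The double depletion raised Ppn less than the sum of the single ones. The interaction, which is double minus Ime4 minus CG7818 plus Control on the log2 scale, was -0.55 for Ppn (SE 0.100, adjusted p = 0.0274). It was the only member called of 10, where 0.108% of all genes were called. The call was lost in 9 of 12 fits that left out 1 library and with the length trend removed (-0.46, adjusted p = 0.164, the highest of its alternatives). The 9 were the fits without Ime4 replicate 1 (-0.50), Ime4 replicate 2 (-0.54), CG7818 replicate 1 (-0.55), CG7818 replicate 2 (-0.55), CG7818 replicate 3 (-0.53), double replicate 1 (-0.52), double replicate 3 (-0.52), Control replicate 1 (-0.52) or Control replicate 3 (-0.52). For LanB1 the interaction was -0.08 (SE 0.0761, adjusted p = 0.899).

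Tig, the integrin ligand tiggrin, was below Control in every depletion. Its levels were 102.5, 106 and 116 CPM in Ime4, 113, 109.8 and 116 CPM in CG7818, 93.7, 96.2 and 105 CPM in double, 108, 84.5 and 101 CPM in Fl2d, 105, 97.5 and 108 CPM in CG6422 and 90.8, 109 and 108.5 CPM in YT521 libraries, against 133.5, 146 and 126 CPM in Control libraries. No library of any depletion reaches the Control range. The log2 fold change was -0.46 in double (SE 0.0816, adjusted p = 0.000699), -0.47 in Fl2d (SE 0.0818, adjusted p = 0.000109), -0.39 in CG6422 (SE 0.0814, adjusted p = 0.00280) and -0.40 in YT521 cells (SE 0.0811, adjusted p = 0.00448), called in all alternatives run, though with the length trend removed the value in CG6422 cells was -0.25 (adjusted p = 0.0412). In Ime4 cells it was -0.32 (SE 0.0812, adjusted p = 0.0271), and the call was lost in 4 fits, namely with Ime4 replicate 1 (-0.29) or 2 (-0.31) left out and with Control replicate 1 (-0.34) or 2 (-0.27) left out. In CG7818 cells it was -0.26 (SE 0.0812, adjusted p = 0.0972). Direct tests between depletions called Tig in none of the 6 comparisons.

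SPARC, the most abundant member, was called in the Fl2d depletion and in no other. SPARC had 539, 541 and 526 CPM in Ime4, 528.5, 569 and 555.5 CPM in CG7818, 467.5, 507 and 508 CPM in double, 1099, 721 and 732 CPM in Fl2d, 529.8, 561 and 579 CPM in CG6422 and 558, 624 and 561 CPM in YT521 libraries, against 497, 599.5 and 543 CPM in Control libraries. The Fl2d libraries stand above all others, and Fl2d replicate 1, which is also low in mt:lrRNA, stands above the other two. The log2 fold change in Fl2d cells was 0.64 (SE 0.107, adjusted p = 7.34e-05), and without Fl2d replicate 1 it was 0.40 (adjusted p = 6.61e-05). In the other 5 depletions it lay between -0.14 and 0.09, with adjusted p of 0.443 or more. SPARC was also higher in Fl2d than in double cells by 0.78 (SE 0.107, adjusted p = 1.04e-05).

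Pxn stood at 190.1, 189 and 169 CPM in Ime4, 184, 193 and 194.5 CPM in CG7818, 158, 181.5 and 176 CPM in double, 258, 202 and 203 CPM in Fl2d, 217, 211 and 214 CPM in CG6422 and 158, 178 and 164.5 CPM in YT521 libraries, against 189.6, 223 and 195 CPM in Control libraries. It was called in 1 depletion, YT521, with a log2 fold change of -0.28 (SE 0.0802, adjusted p = 0.0386). In the other depletions Pxn was not called, with -0.24 in double (adjusted p = 0.0575), -0.15 in Ime4 (adjusted p = 0.340) and 0.13 in Fl2d cells (adjusted p = 0.222) among the values. The call in YT521 cells was lost without YT521 replicate 1 (-0.25), YT521 replicate 3 (-0.27), Control replicate 2 (-0.20) or Control replicate 3 (-0.31), and with the length trend removed (-0.22). The reader depletions differed directly. Pxn was lower in YT521 than in CG6422 cells (-0.36, SE 0.0802, adjusted p = 0.00457), in all alternatives run. It was higher in Fl2d than in double cells by 0.36 (SE 0.0805, adjusted p = 0.00132), and by 0.23 without Fl2d replicate 1 (adjusted p = 0.0161).

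Of the collagen IV genes, Col4a1 rose in Fl2d cells and vkg was called in no depletion, at levels that few reads support. Col4a1 had 1.39, 1.77 and 1.29 CPM in Ime4, 1.78, 1.67 and 2.14 CPM in CG7818, 1.252, 1.57 and 0.998 CPM in double, 3.298, 2.35 and 2.26 CPM in Fl2d, 1.098, 1.38 and 1.08 CPM in CG6422 and 1.39, 1.704 and 1.79 CPM in YT521 libraries, against 1.68, 1.53 and 1.73 CPM in Control libraries. The Fl2d libraries are the highest. It rose in Fl2d cells by 0.69 on the log2 scale (SE 0.183, adjusted p = 0.00473), but the call was lost without Fl2d replicate 1 (0.49, adjusted p = 0.0570) and without both libraries low in mt:lrRNA (0.49, adjusted p = 0.0602), the highest of its 13 alternatives, whose adjusted p began at 0.00255. Against double cells it was higher in Fl2d cells by 1.04 (SE 0.193, adjusted p = 0.000266), a call that held in all alternatives run.

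The partner chain vkg had 3.89, 4.42 and 3.096 CPM in Ime4, 3.81, 4.07 and 3.59 CPM in CG7818, 3.67, 5.32 and 4.13 CPM in double, 4.92, 4.56 and 4.42 CPM in Fl2d, 2.67, 2.87 and 3.33 CPM in CG6422 and 4.204, 5.18 and 4.23 CPM in YT521 libraries, against 3.497, 3.62 and 4.15 CPM in Control libraries. The log2 fold changes lay between -0.34 in CG6422 and 0.31 in Fl2d cells, with adjusted p of 0.0958 or more. Before adjustment, edgeR's p for vkg was 0.0409 in CG6422 and 0.0461 in Fl2d cells, and with the length trend removed vkg was called in Fl2d cells (adjusted p = 0.0406). Between the readers it was higher in YT521 than in CG6422 cells by 0.62 (SE 0.149, adjusted p = 0.00745), in all alternatives run. The count ratio of Col4a1 to vkg was 0.391 ± 0.031 in Ime4, 0.491 ± 0.094 in CG7818, 0.292 ± 0.050 in double, 0.566 ± 0.090 in Fl2d, 0.405 ± 0.078 in CG6422 and 0.361 ± 0.054 in YT521 cells, against 0.440 ± 0.035 in Control cells. The Ime4 and double groups lay below, and the Fl2d group above, every Control library (exact 2-sided permutation p = 0.1 each). The margin of the Ime4 group was slight, with 0.415 in Ime4 replicate 3 against 0.417 in Control replicate 3. Those ratios rest on 27 over 65 and on 35 over 84 counts.

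**Figure D3:**
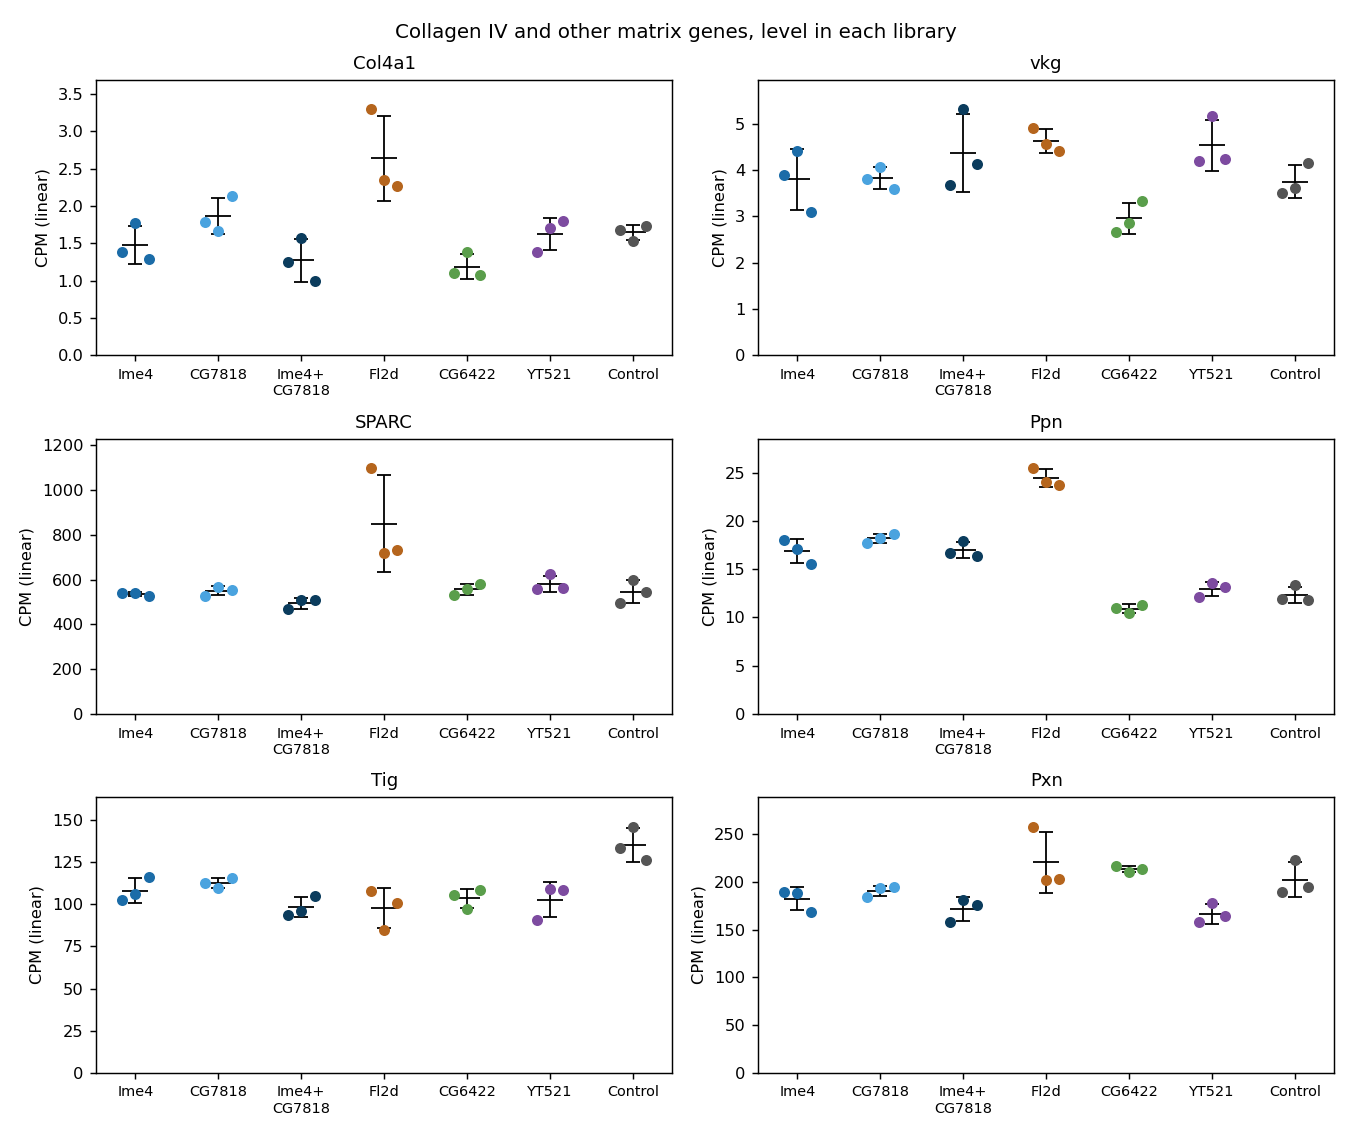
Level in CPM (linear axes that start at 0) of the 6 members that are no laminin chain, in the 3 libraries of each group, with the mean and SD as bars. Ppn is raised in the 4 writer depletions, up to 24.4 ± 0.910 CPM in Fl2d cells, against 12.3 ± 0.858 CPM in Control cells, and the libraries of Tig lie below Control in all depletions, while the wide SD of SPARC in Fl2d cells comes with replicate 1 at 1099 CPM.

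**Figure D4:**
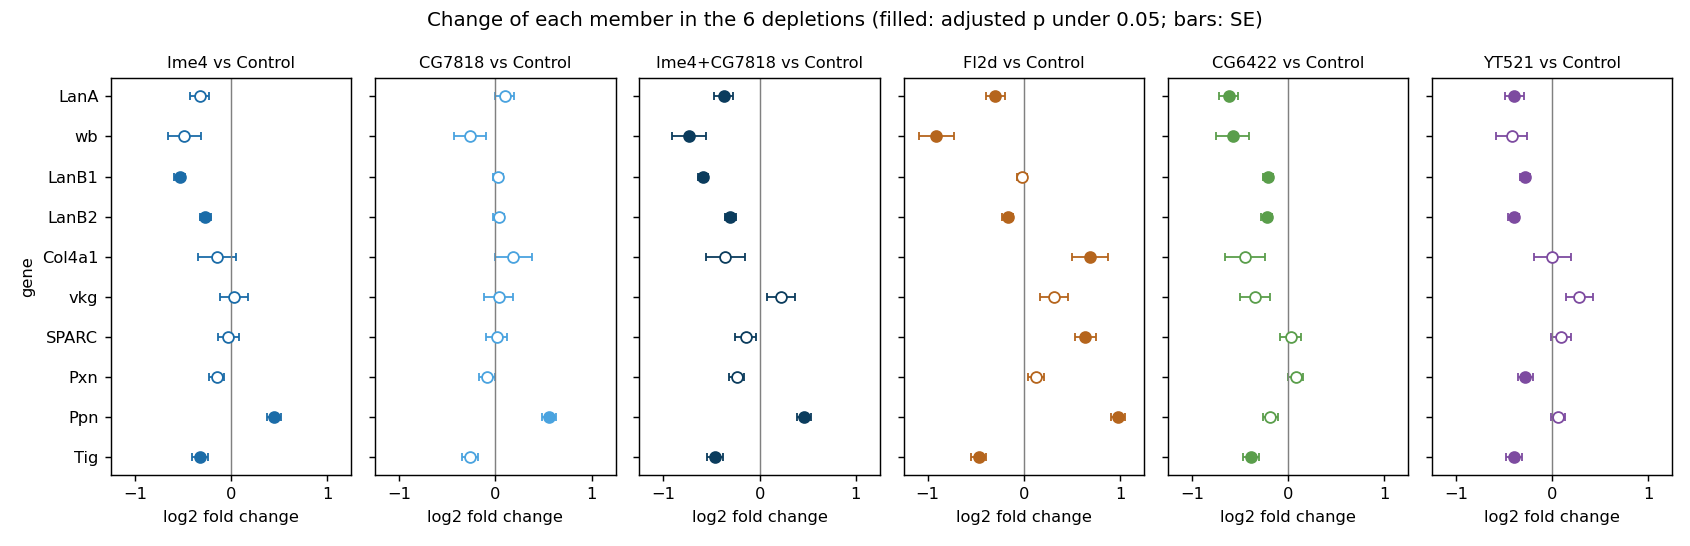
Log2 fold change against Control of the 10 members in each of 6 depletions, with its SE as a bar and filled points for an adjusted p under 0.05. In the CG7818 depletion 1 member, Ppn, is filled, while 6 are filled in the double and 7 in the Fl2d depletion.

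Direct comparisons between depletions called 0 to 5 of the 10 members. CG7818 against Ime4 depletion gave 2 of 10 members called, both higher, where 0.502% of all genes were called. They were LanB1 and LanB2 (0.30, SE 0.0572, adjusted p = 0.0110), and the call of LanB2 was lost without Ime4 replicate 1 (0.30), Ime4 replicate 3 (0.29) or CG7818 replicate 3 (0.29). LanA was 0.43 higher (SE 0.100, adjusted p = 0.0563), was not called, and passed in 5 of 12 alternatives, among them the length trend removed (0.39, adjusted p = 0.0158). The double against the CG7818 depletion gave 3 lower members, beside 2.17% of all genes. These were LanB1, LanB2 (-0.34, SE 0.0572, adjusted p = 0.00404) and LanA (-0.47, SE 0.100, adjusted p = 0.0203), and the call of LanA was lost without CG7818 replicate 1 (-0.45), CG7818 replicate 3 (-0.44), double replicate 1 (-0.43) or double replicate 2 (-0.47). The double against the Ime4 depletion gave 0 of 10 members, beside 0.156% of all genes, with edgeR. At an unadjusted p under 0.05 it also gave 0, as did DESeq2.

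Fl2d against double depletion gave 5 members, all higher, beside 36.9% of all genes. They were LanB1, Col4a1, SPARC, Ppn and Pxn, with the values given above. LanB2 was 0.14 higher (adjusted p = 0.0679) and was called with the length trend removed (0.18, adjusted p = 0.0175) and without Fl2d replicate 2 (0.19, adjusted p = 0.0119). YT521 against double depletion gave 2, LanB1 higher and Ppn lower, beside 10.7%. YT521 against CG6422 depletion gave 4 (vkg and Ppn higher, LanB2 and Pxn lower), beside 12.9%. The difference of LanB2 there was -0.18 (SE 0.0573, adjusted p = 0.0414) and lost its call without CG6422 replicate 1 (-0.13), CG6422 replicate 3 (-0.18), YT521 replicate 1 (-0.13) or YT521 replicate 3 (-0.19), with no filter on low counts (-0.17) and in a fit of these groups alone (-0.18).

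Other genes of the matrix were read from 3 lists, also chosen with earlier results of these data known. Of 14 further basement membrane and matrix genes 12 were matched and 10 tested. The Ime4 and the CG7818 depletion each called 0 of these 10, the double depletion 2 lower (5.13% of all genes), the Fl2d depletion 4 lower (19.9%) and the CG6422 depletion 6 lower (10.2%), while the YT521 depletion called 2 higher (3.27%) and 1 lower (3.25%). Median log2 fold changes of the list were -0.13 in Ime4, -0.11 in CG7818, -0.06 in double, -0.17 in Fl2d, -0.36 in CG6422 and 0.07 in YT521 cells, where the medians over all genes lay between -0.004 and 0.015. In CG6422 cells dally, a glypican (-0.56, adjusted p = 0.000195), mfas (-0.83, adjusted p = 0.00121) and Mp, a collagen of the multiplexin type (-1.38, adjusted p = 0.00248, 5 to 9 counts per library), fell most firmly, and with the length trend removed 5 genes of the list were called lower, all of them among these 6.

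The matrix metalloproteinase Mmp1 rose in YT521 cells. It averaged 77.8 ± 7.63 CPM in YT521 cells and 52.0 ± 6.96 CPM in Control cells, with no overlap (0.58, SE 0.108, adjusted p = 0.00190). It was higher in YT521 than in CG6422 cells by 1.05 (SE 0.111, adjusted p = 1.14e-06), one of 5 of the 10 list genes called in that direct comparison, all higher, where 12.9% of all genes were called in either direction. Mmp1 was itself called lower in CG6422 cells, at 37.5 ± 3.85 CPM (-0.47, SE 0.112, adjusted p = 0.00645), and in Fl2d cells, at 40.7 ± 4.47 CPM (-0.35, SE 0.113, adjusted p = 0.0159), so the difference between the readers takes in both the rise in YT521 and the fall in CG6422 cells. The call in Fl2d cells was lost without Fl2d replicate 1 (-0.27), without both libraries low in mt:lrRNA (-0.27) and without Control replicate 1 (-0.25, adjusted p = 0.111). In YT521 cells dally was also called higher (0.28, adjusted p = 0.0390) and Mmp2 lower (-0.24, adjusted p = 0.0379), but both calls were lost in alternatives. That of dally was lost without YT521 replicate 1, YT521 replicate 3, Control replicate 2 or Control replicate 3 and in a fit of the compared groups alone (0.22 to 0.28, adjusted p up to 0.209), and that of Mmp2 without YT521 replicate 1, YT521 replicate 2 or any Control library and with the length trend removed (-0.27 to -0.19, adjusted p up to 0.168). In the Fl2d depletion mfas (-0.80, adjusted p = 0.000381), dally (-0.38, adjusted p = 0.00105) and the thrombospondin gene Tsp (-0.25, adjusted p = 0.00973) fell, though Tsp lost its call with the length trend removed (adjusted p = 0.0528). In the double depletion dally (-0.30, adjusted p = 0.0212) and Mmp2 (-0.22, adjusted p = 0.0451) were called lower. The call of dally was lost without double replicate 1, double replicate 2, Control replicate 1 or Control replicate 2 (-0.30 to -0.26, adjusted p up to 0.0961), and that of Mmp2 without any 1 of the 6 libraries and with the length trend removed (-0.25 to -0.18, adjusted p up to 0.173). Mmp2 was called lower in CG6422 cells too (-0.25, SE 0.0697, adjusted p = 0.0153), where its alternatives are not given here.

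Genes of collagen maturation and matrix secretion were called more often in the Fl2d depletion than in any other. Of 13 listed 10 were tested, and 2 were called higher and 0 lower in the Ime4 depletion, where 1.77% of all genes were higher and 1.95% lower. The counts were 0 in the CG7818 depletion (1.10% and 1.22%), 2 higher and 1 lower in the double (6.29% and 5.13%), 6 higher and 1 lower in the Fl2d (21.4% and 19.9%), 1 higher and 1 lower in the CG6422 (8.88% and 10.2%) and 0 in the YT521 depletion (3.27% and 3.25%). Hsc70-3, the ER chaperone BiP, averaged 2926 ± 45.1 CPM in double and 2199 ± 116 CPM in Control cells (0.41, SE 0.0582, adjusted p = 6.62e-05). It was also called in Ime4 cells (0.22, adjusted p = 0.0337), a call that ended when Ime4 replicate 2 or 3, or Control replicate 1 or 2, was left out (0.18 to 0.22, adjusted p up to 0.173). The prolyl 4-hydroxylase PH4alphaEFB averaged 736 ± 32.1 CPM in Fl2d and 570 ± 6.89 CPM in Control cells (0.37, SE 0.0527, adjusted p = 1.2e-05), and the chaperone calnexin, Cnx99A, rose there too (0.28, adjusted p = 0.000726). The transport GTPase gene Sar1 rose in double (0.20, adjusted p = 0.00836), Fl2d (0.20, adjusted p = 0.00224), CG6422 (0.23, adjusted p = 0.00270) and Ime4 cells (0.18, adjusted p = 0.0397). Its call in Ime4 cells was lost without any 1 of the Ime4 libraries, Control replicate 2 or Control replicate 3. It was also lost with no filter on low counts (0.16 to 0.19 over these fits, adjusted p up to 0.172). For its call in Fl2d cells the alternatives are not given here. CrebA, a transcription factor for secretory genes, fell in Fl2d (-0.69, adjusted p = 0.000420), CG6422 (-0.53, adjusted p = 0.00897) and double cells (-0.45, adjusted p = 0.0322), and the last call was lost when any 1 of the 6 libraries was left out (-0.49 to -0.40, adjusted p up to 0.134) and the one in CG6422 cells without CG6422 replicate 2 (adjusted p = 0.0578).

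Of 9 matrix receptor genes 7 were tested, with 0 called in the Ime4 and in the YT521 depletion, 1 lower in the CG7818 (1.22% of all genes), 1 lower in the double (5.13%), 2 higher and 3 lower in the Fl2d (21.4% and 19.9%) and 3 lower in the CG6422 depletion (10.2%). The integrin beta chain gene mys averaged 338 ± 10.7 CPM in Fl2d and 250.3 ± 6.14 CPM in Control cells (0.43, SE 0.0446, adjusted p = 1.6e-07). The integrin alpha chain gene if, whose product binds tiggrin, fell in Fl2d (-0.99, SE 0.151, adjusted p = 2.53e-05), double (-0.66, SE 0.142, adjusted p = 0.00360) and CG7818 cells (-0.60, SE 0.141, adjusted p = 0.0221), the last not without CG7818 replicate 1, CG7818 replicate 2, Control replicate 1 or Control replicate 2 (-0.61 to -0.51, adjusted p up to 0.143). The alpha chain gene ItgaPS4 fell in Fl2d (-0.48, adjusted p = 2.79e-05) and CG6422 cells (-0.32, adjusted p = 0.00418). The beta chain gene Itgbn averaged 16.5 ± 3.39 CPM in Fl2d and 27.5 ± 2.48 CPM in Control cells, with no overlap between the libraries. In CG6422 cells if (-0.39, adjusted p = 0.0482) and Itgbn (-0.32, adjusted p = 0.0472) passed narrowly. The call of if was lost in 9 of 12 alternatives, among them each fit without 1 library other than Control replicate 3 (adjusted p up to 0.225), and that of Itgbn in 5, with the length trend removed and without CG6422 replicate 2, CG6422 replicate 3, Control replicate 1 or Control replicate 2 (adjusted p up to 0.211).

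**Figure D5:**
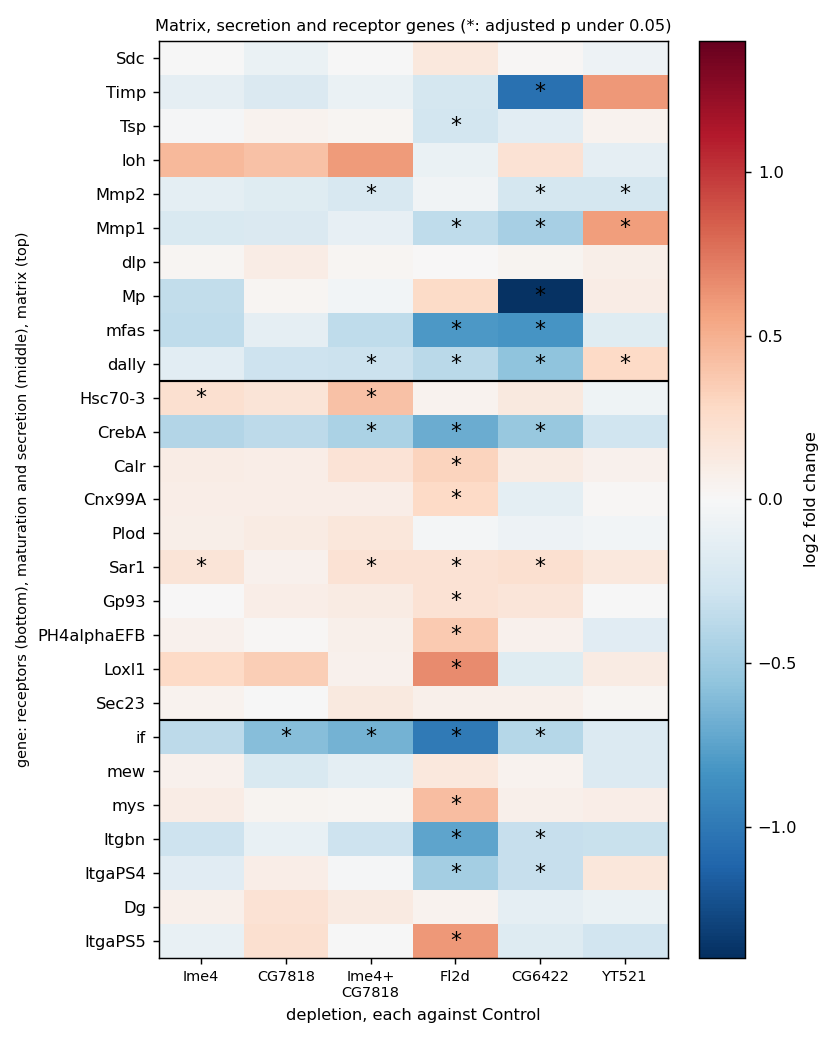
Log2 fold change against Control, as colour, of the tested genes of the 3 lists in each depletion, with stars for an adjusted p under 0.05. In the matrix list at the top 6 of 10 genes are starred as lower in CG6422 cells, where 10.2% of all genes were, and in the secretion list in the middle 6 of 10 are starred as higher in Fl2d cells, where 21.4% of all genes were.

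The pattern over the 7 groups was compared between genes as the root mean square difference of centred log2 CPM. Among 45 pairs of members, LanB2 and Tig differed least (0.12), followed by LanB2 with Pxn, wb with Tig and LanA with LanB2 (0.14 each). The pair wb and Ppn differed most (0.56). The difference is also small where both genes vary little. The centred pattern itself had a root mean square of 0.15 in LanB2, 0.15 in Tig and 0.14 in Pxn. It was 0.23 in LanA, 0.27 in wb and 0.37 in Ppn. The differences of LanB2 from Tig and from Pxn were thus not much smaller than the patterns themselves. Col4a1 and vkg, neighbours in the genome, differed by 0.27. Among the 6033 or 6034 other genes (by member) that averaged 10 CPM or more, the nearest to LanA were tweek (0.07) and Not1 (0.07), to LanB1 spz (0.14) and Akap200 (0.14), and to LanB2 Cdk2 (0.05) and Cyp310a1 (0.06). The nearest to SPARC were rumi (0.03) and Wsck (0.05), to Tig promL (0.05) and SWIP (0.06), and to Pxn CtsL1 (0.04) and CDase (0.05). For Ppn the nearest were Slc45-1 (0.11) and FBgn0000099 (0.17), which has no entry in the annotation used. The low members had Cyp12d1-d (0.10) and Plc21C (0.11) nearest to wb, Swim (0.08) and Spn27A (0.13) nearest to Col4a1, and su(r) (0.06) and rempA (0.10) nearest to vkg. These values describe 7 group means from shared libraries.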

How the data were processed

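Poly(A) RNA was sequenced from 21 S2R+ libraries. The authors deposited raw counts of reads per gene, 1 table per library. The tools named in the submitters' processing notes are STAR 2.4.0h, DESeq2 1.6.3, CASAVA 1.8.4 and HTSeq 0.6.1, with BDGP6 as the build. The sources used here do not give their roles, the strand setting or the annotation release. Of the 5 summary lines, reads in several places made 11.0% to 18.7%, reads outside genes 1.46% to 1.91% and ambiguous reads 0.723% to 0.893%, and all stayed out of library sizes and tests. Symbols and exon lengths came from Ensembl for BDGP6.54, which matched 17252 IDs.

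Groups followed the titles, although the genotype field of the double libraries lists Ime4 alone. All 21 libraries entered 1 fit with 1 mean per group in edgeR 4.0.16 (R 4.3.3), with filterByExpr at a minimum count of 10, TMM factors, the quasi-likelihood test, prior count 0.125, 14 residual degrees of freedom and Benjamini-Hochberg adjustment over 8360 genes, called under 0.05. The common coefficient of variation was 6.37%. CPM refer to TMM-scaled libraries. SE is the log2 fold change over the root of F. The method was run on counts simulated from the same model that it fits. Such counts have no libraries that stand apart and no length trend, so they cannot show how the method deals with these. DESeq2 1.42.0, RLE factors, no filter, a replicate block, the compared groups alone, libraries left out and a correction for gene length were alternatives. No pair of replicates lay within sampling noise.

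Members and lists were chosen with earlier results of these data known. Named were all members, up to 3 called genes with the smallest p per list and depletion, the 2 genes nearest in pattern to each member, and the depleted genes. Mmp1 in YT521 against CG6422, and in CG6422 and Fl2d cells, was named after its values were seen. The same holds for Sar1 in Fl2d cells and Mmp2 in CG6422 cells. The genes trol, glt, Pdi, Tango1, scb, wupA, vas and nos were not analysed here.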

Additional observations from a re-analysis of the deposited data

Results flagged for a closer look

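For Ppn the interaction of the Ime4 and CG7818 depletions was -0.55 on the log2 scale (SE 0.100, adjusted p = 0.0274 with edgeR's quasi-likelihood test). The effect of depleting CG7818 on Ppn thus differed between cells with and without Ime4 depletion by a test of the difference itself. All 3 libraries of each single depletion and of the double depletion lay above all 3 Control libraries. The call was lost in 9 of 12 fits without 1 library and with the length trend removed, and what lies behind the difference was not tested.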

How the results depend on the processing

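Of 130 log2 fold changes of members (10 members in 13 comparisons), 45 were called, 29 of these in every alternative run, and 0 reversed as called values. The other 16 lost their call in at least 1 alternative, and 11 of 85 uncalled values gained one. Counts of members called moved in several comparisons and settings, most often for the interaction. The CG7818 depletion called 2 members with no filter on low counts and 2 in a fit of the compared groups alone, which gave 5 for double against CG7818 and 2 for YT521 against CG6422. The length correction, chosen after seeing the data, gave 2 for the CG6422 depletion and 0 for the interaction. Leaving out 1 library each gave 2 to 4 members for Ime4, 5 to 6 for double and 5 to 7 for Fl2d. It gave 2 to 5 for CG6422 and 3 to 5 for YT521. Between depletions it gave 1 to 2 for CG7818 against Ime4, 2 to 3 for double against CG7818 and 5 to 6 for Fl2d against double. For YT521 against CG6422 it gave 2 to 3, where the fit of all libraries gave 4, and for the interaction 0 to 1. Over all genes, a fit of the compared groups alone called 611 genes for Ime4 (311 in the fit of all groups), 1616 for double (955), 2221 for Fl2d (3451), 226 for CG7818 against Ime4 (42), 174 for double against Ime4 (13), 613 for double against CG7818 (181), 1944 for Fl2d against double (3083), 689 for YT521 against CG6422 (1077) and 46 for the interaction (9). DESeq2 called 121 for CG7818 against Ime4, 46 for double against Ime4, 305 for double against CG7818 and 36 for the interaction, and no filter on low counts 176, 76, 320 and 46 for the same comparisons. The length correction called 68 for CG7818 against Ime4. Leaving out 1 library each gave 142 to 197 genes for Ime4, 95 to 122 for CG7818, 461 to 752 for double, 864 to 1429 for CG6422, 248 to 495 for YT521, 16 to 32 for CG7818 against Ime4, 6 to 10 for double against Ime4, 26 to 61 for double against CG7818, 541 to 701 for YT521 against double, 679 to 1017 for YT521 against CG6422 and 1 to 12 for the interaction, where fewer libraries are tested by construction. The cause of the other shifts was not tested. The main fit did not pair libraries by replicate number. Deviations from group means correlated at -0.235 to 0.278 between same-numbered libraries (median 0.0681, 63 pairs). Between libraries of other numbers they correlated at -0.265 to 0.344 (median -0.029, 126 pairs). These overlapping ranges do not settle whether replicate numbers pair the libraries. With a replicate block, 64 genes were called for CG7818 against Ime4 (42 without it) and 22 for double against Ime4 (13 without it). No call of a member was lost under the block, and LanA gained one in Ime4 against Control (adjusted p = 0.0452) and in CG7818 against Ime4 (adjusted p = 0.0356). Depth limits wb, Col4a1 and vkg most.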
